A study of Mus musculus with 6 samples.

Results

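The genes described here encode the motor of the heart muscle cell: the myosin heavy chains Myh6, Myh7 and Myh7b, the ventricular light chains Myl2 and Myl3, and Mybpc3, which encodes cardiac myosin binding protein C. They were chosen by name, and all 6 are among the 18019 genes of the deposited table and among the 11422 genes that were tested. The levels come from hearts of mice labelled WT. All mice had undergone TAC (transverse aortic constriction) 8 weeks earlier, which makes the left ventricle pump against a narrowed aorta. In the VNS-TAC group (3 libraries), an adeno-associated virus, rAAV-ChAT-hChR2[H134R]-GFP, had been injected into the DVMN (dorsal vagal motor nucleus). Its ChAT promoter directs the light-gated channel hChR2 to cholinergic cells, and light was used to activate the neurones of the vagus. The Ctrl-TAC group (3 libraries) had received rAAV-ChAT-GFP, which lacks the channel. Both groups had TAC, so no comparison here says how myosin genes differ from an unloaded heart. The sources used here give no age, sex or strain. They also do not state that the libraries of a group are separate animals, and p-values measure only library-to-library spread, some of which may be technical. The table numbers the VNS-TAC columns 1 to 3 and the labels number those libraries 4 to 6. The libraries are therefore numbered here as in the table.

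A thick filament is a bundle of myosin molecules, each made of a pair of heavy chains that carry the ATPase motor and of essential and regulatory light chains that wrap its neck. Myh6 encodes the fast alpha heavy chain, which dominates the adult mouse ventricle, and Myh7 the slower beta heavy chain, which dominates before birth and returns in the overloaded or hypothyroid rodent heart. The balance of Myh7 to Myh6 is for this reason a widely used readout of pressure overload. Myl2 is the regulatory and Myl3 the essential light chain of the ventricle, and Mybpc3 ties myosin heads to the filament and tunes how they engage actin. Myh7b is an ancient relative of the cardiac heavy chains whose mouse cardiac transcript is known to make little protein.

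Myh6 (NCBI gene 17888, chr14:54941921-54968017) and Myh7 (NCBI gene 140781, chr14:54970684-54994626) lie head to tail on the minus strand of GRCm38.p6, with 2666 bases between them. Myh7b is at chr2:155611243-155634307 on the plus strand. Each of these 3 heavy chain genes carries a microRNA in an intron. They are shown because microRNA and host are transcribed together, and because miR-208a is known in mice to be needed for the rise of Myh7 under stress. MicroRNAs were not measured in these libraries. The mature sequences from RefSeq follow, with the seed (bases 2 to 8) in capitals, for introns 29 of Myh6, 31 of Myh7 and 19 of Myh7b.
miR-208a-3p (in Myh6): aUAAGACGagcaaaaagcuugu
miR-208b-3p (in Myh7): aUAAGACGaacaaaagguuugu
miR-499-5p (in Myh7b): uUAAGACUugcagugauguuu
miR-208a-3p and miR-208b-3p share their seed and differ at 3 of 22 bases in all, whereas the seed of miR-499-5p differs from theirs at 1 of 7 bases.

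The coding sequences of Myh7 and Myh6 are identical at 91.6% of aligned bases, with a longest identical run of 245 bases, which bears on how well reads of these genes can be told apart. Of all 150-base windows of the Myh7 transcript, 5.51% occur unchanged in that of Myh6, and of all 50-base windows 22.6% do. How reads that match both genes were counted is not given in the sources used here, so each level carries that uncertainty. Myh7b stands further off, at 72.1% identity to each of the other heavy chains. The 60 coding bases at which Myh7 and Myh6 differ most are shown for the contrast, with the 27 bases that differ in capitals.
Myh7, coding bases 3220 to 3279: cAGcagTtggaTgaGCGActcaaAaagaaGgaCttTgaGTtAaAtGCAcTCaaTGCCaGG
Myh6, coding bases 3226 to 3285: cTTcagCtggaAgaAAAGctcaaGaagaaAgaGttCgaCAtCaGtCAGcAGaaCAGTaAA

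The values are FPKM, fragment numbers corrected for gene length and for the fragments of the library. Which length served for each gene is unknown, which limits every order, ratio or share between genes. All annotated exons of Myl2 cover 1950 bases and its transcript 662, and those of Myl3 2044 and 937. For Myh7 the lengths are 8616 and 6135 bases, and for Myh6 6726 and 6008. The fragment numbers below rest on the exon lengths. Comparing libraries for the same gene or ratio is not affected. Low values fall on steps that put the depth of a library at about 13960000 to 16320000 fragments. Libraries VNS-TAC 3 and VNS-TAC 1 stood apart from the rest. Principal component 1 (48% of the variance) put VNS-TAC 3 at 46.4 and the other libraries between -16.6 and 4.64, and principal component 2 (33.9%) put VNS-TAC 1 at 36.5 and the others between -18.3 and 4.54. Ventricular identity of the tissue was clear, since Myl2 ranked first or second of all genes in every library, and the ventricular factor Irx4 was at 15.0 to 22.1 FPKM in VNS-TAC libraries, compared with 12.1 to 17.5 in Ctrl-TAC. The sum of 6 ventricular markers, most of it Myl2 and Myl3, was 30520, 24600 and 18500 FPKM in VNS-TAC 1, 2 and 3. In Ctrl-TAC 1, 2 and 3 it was 23000, 21690 and 20890. Mybpc3 is counted among these markers, although atrial muscle expresses it too. Among these markers, Hey2 rose over VNS-TAC 1, 2 and 3 (1.14, 2.19 and 4.97 FPKM) while Irx4 and Lbh fell (Lbh 333.5, 192.8 and 148.2 FPKM). Atrial muscle was present as well. The atrial light chain gene Myl7 was at 528, 619 and 707 FPKM in libraries VNS-TAC 1, 2 and 3 and at 516, 195 and 1005 in Ctrl-TAC 1, 2 and 3.

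The question of the comparison is whether vagal activation altered the myosin programme of the overloaded heart. None of the 6 genes passed the threshold of limma, a linear model with moderated statistics fitted to log2(FPKM + 1) of all tested genes (Benjamini-Hochberg adjusted p under 0.05). Of the 11422 tested genes 0% passed it, while 15.0% (1719 genes) had an unadjusted p under 0.05. Only Myh7b among the 6 had one, and it was also the only member whose groups did not overlap, as was the case for 25.4% of tested genes (17.4% lower and 8.01% higher in VNS-TAC). A single member of 6 is near these background shares. On average 4 of the 6 were lower in VNS-TAC, as were 61.8% of tested genes. The median log2 fold change of the 6 genes was -0.05, against -0.08 over all tested genes. In whole tissue, fewer cells of a type and less RNA per cell cannot be told apart.

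**Figure D1:**
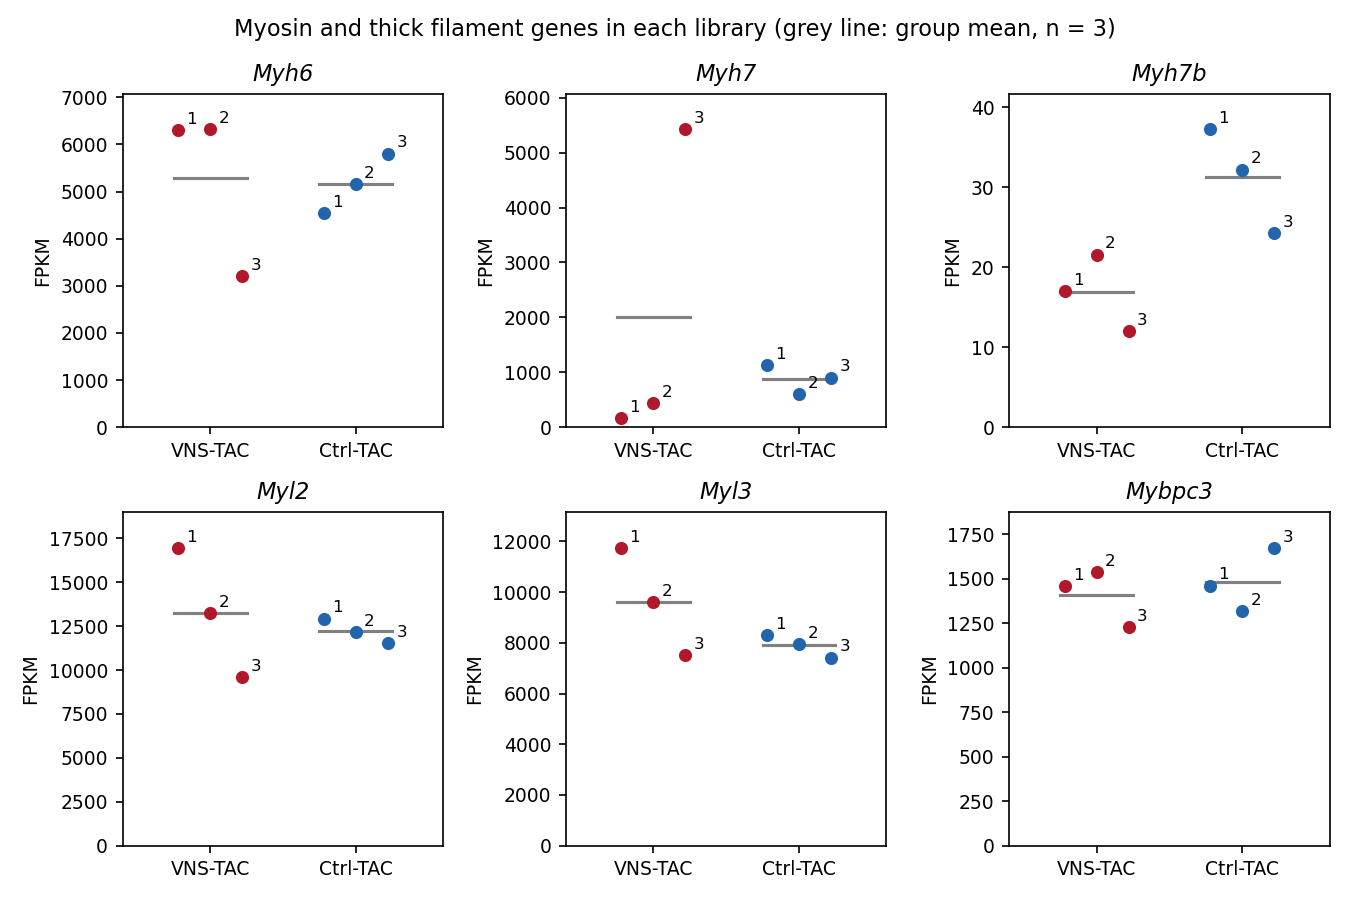
FPKM (vertical axis, linear from 0) of the 6 genes in the 3 VNS-TAC libraries (red) and the 3 Ctrl-TAC libraries (blue), with library numbers beside the points and group means as grey lines. Myh7 of VNS-TAC 3 lies at 5427 FPKM, far above its other libraries, and Myh7b is the only gene whose groups do not overlap.

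Myh7 varied far more between the VNS-TAC libraries than between the Ctrl-TAC libraries. It was at 165, 435 and 5427 FPKM in libraries VNS-TAC 1, 2 and 3, against 1128, 600.2 and 904 FPKM in Ctrl-TAC 1, 2 and 3. Thus 2 VNS-TAC libraries lay below every Ctrl-TAC library and the remaining one above all of them. The highest VNS-TAC level was 32.9 times the lowest, against 1.88 times within Ctrl-TAC. On the log2(FPKM + 1) scale the SD of Myh7 was 2.60 in VNS-TAC, where only 5 of the 11422 tested genes had a larger SD and the median gene had 0.25. In Ctrl-TAC it was 0.46, which ranked 192, with a median of 0.11. The groups could not be told apart for Myh7, with a log2 fold change of -0.22 ± 1.13 (SE), a 95% interval of -2.85 to 2.42 and a limma adjusted p of 0.938. Without VNS-TAC 3 the log2 fold change was -1.66 ± 0.41 (SE; adjusted p = 0.178), and without VNS-TAC 1 it was 0.86 ± 0.94 (adjusted p = 0.616). With array weights, which set VNS-TAC 1 and 3 low, it was -0.85 ± 0.50 (adjusted p = 0.28).

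Depth was ample for this gene, since even the 165 FPKM of VNS-TAC 1 correspond to about 23000 fragments, and the level of VNS-TAC 3 to about 730000. Myh7 ranked 490 and 211 among all genes in VNS-TAC 1 and 2, and 8 in VNS-TAC 3, where it stood above Myh6. Its Ctrl-TAC ranks were 59, 121 and 75.

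Myh6, the main adult heavy chain gene, was at 6307, 6324 and 3212 FPKM in libraries VNS-TAC 1, 2 and 3, against 4539, 5153 and 5805 FPKM in Ctrl-TAC 1, 2 and 3. The first 2 VNS-TAC libraries were thus above all Ctrl-TAC libraries and VNS-TAC 3 below all of them, the mirror image of Myh7. The log2 fold change was -0.03 ± 0.29 (SE), with a 95% interval of -0.71 to 0.66 and a limma adjusted p of 0.969. Its sign turned to 0.07 after rescaling by size factors and to 0.30 without VNS-TAC 3 (adjusted p = 0.249).

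The Myh7 to Myh6 ratio is taken within a library, so a single scaling factor per library leaves it as it is. It was 0.0261, 0.0688 and 1.69 in VNS-TAC 1, 2 and 3, against 0.249, 0.116 and 0.156 in Ctrl-TAC 1, 2 and 3. The groups overlapped only because the VNS-TAC values fell on both sides of Ctrl-TAC. VNS-TAC 3 was 6.80 times the highest Ctrl-TAC library, while the lowest Ctrl-TAC library was 1.69 times VNS-TAC 2 and 4.45 times VNS-TAC 1. Within VNS-TAC the ratio ranged 64.6-fold, and within Ctrl-TAC 2.13-fold. The mean log2 ratio was -2.79 ± 3.15 in VNS-TAC and -2.60 ± 0.55 in Ctrl-TAC (SD, n = 3 each), a difference of -0.19 (2-sided exact permutation test over 20 assignments, p = 1.0, where 0.1 is the smallest possible). Without VNS-TAC 3 the difference was -1.96 (exact permutation p = 0.2, the smallest that 2 libraries against 3 allow here). Without VNS-TAC 1 it was 1.05, without VNS-TAC 2 it was 0.35, and without Ctrl-TAC 1 it was 0.10. The difference of group medians was -1.18.

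Expressed as a share of both heavy chains, Myh7 made up 2.55%, 6.43% and 62.8% of the summed Myh6 and Myh7 FPKM in libraries VNS-TAC 1, 2 and 3. The shares were 19.9%, 10.4% and 13.5% in Ctrl-TAC 1, 2 and 3. The sum itself was 6472, 6758 and 8640 FPKM in VNS-TAC libraries, compared with 5667, 5753 and 6709 FPKM in Ctrl-TAC. In VNS-TAC 3 the summed level was the highest of the 6 libraries although its Myh6 was the lowest. In VNS-TAC 1 and 2 the low Myh7 stood beside a sum within or just above the Ctrl-TAC range.

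**Figure D2:**
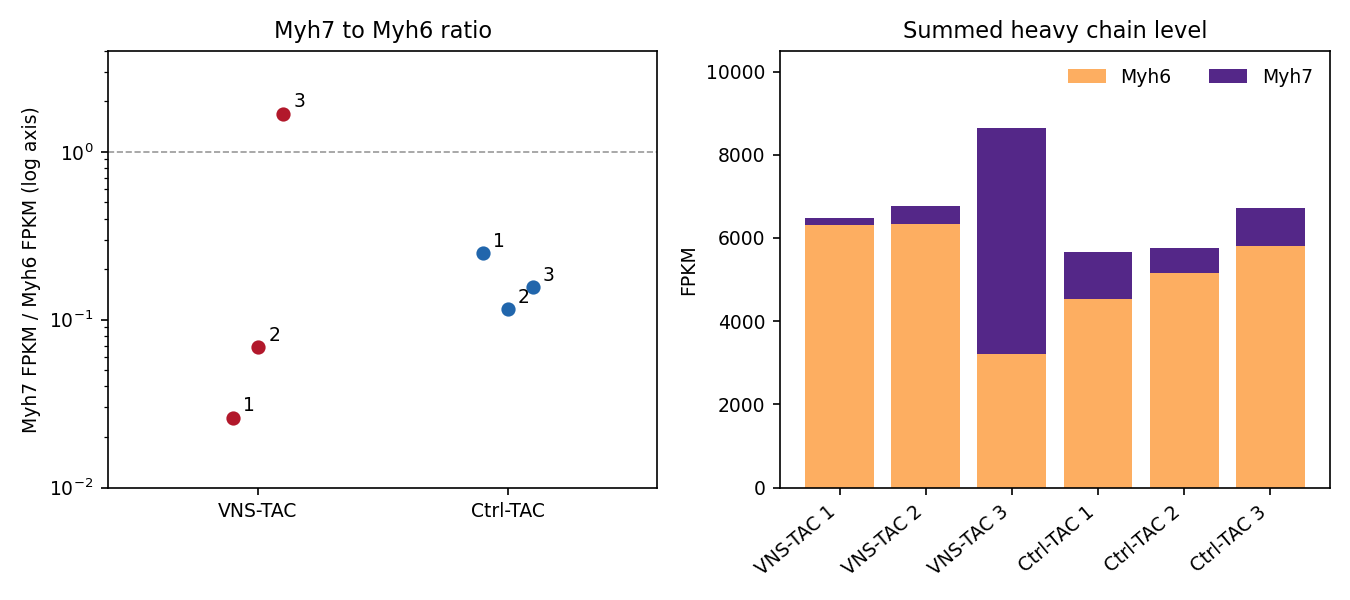
Left, the Myh7 to Myh6 ratio of FPKM in each library on a log axis, with library numbers and a dashed line at a ratio of 1. Right, stacked FPKM of Myh6 and Myh7 per library, where Myh7 is a thin band in VNS-TAC 1 (165 FPKM) and VNS-TAC 2 (435 FPKM) and exceeds Myh6 in VNS-TAC 3 only.

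The direction of Myh7 was the same when set against Myl2, Myl3 and Mybpc3 (which is not restricted to the ventricle) of the same library. Relative to their geometric mean, Myh7 was at 0.0249, 0.0749 and 1.22 in VNS-TAC 1, 2 and 3, against 0.209, 0.119 and 0.173 in Ctrl-TAC 1, 2 and 3. The difference of mean log2 values was -0.31 (2-sided exact permutation p = 0.9). It was -1.91 without VNS-TAC 3, 0.89 without VNS-TAC 1 and 0.10 without VNS-TAC 2. Myh6 relative to the same genes was at 0.952, 1.09 and 0.721 in VNS-TAC libraries, against 0.841, 1.02 and 1.11 in Ctrl-TAC, with a difference of -0.12 (exact permutation p = 0.6) that was 0.05 without VNS-TAC 3. Adjusted over these 3 tests of ratios, each p was 1.0.

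Myh7b was lower in VNS-TAC without passing the adjusted threshold. It was at 16.96, 21.56 and 11.99 FPKM in libraries VNS-TAC 1, 2 and 3, against 37.2, 32.2 and 24.3 FPKM in Ctrl-TAC 1, 2 and 3, with no overlap between groups. Of tested genes, 11.3% were lower with an unadjusted p under 0.05. The log2 fold change was -0.87 ± 0.24 (SE), with a 95% interval of -1.42 to -0.31, an unadjusted p of 0.0073 and a limma adjusted p of 0.236. It stayed between -1.06 and -0.66 in all 16 alternatives, where the adjusted p ran from 0.0446 to 0.711. The lowest came with array weights, the only alternative in which Myh7b passed, a fit that gave VNS-TAC 2 a weight of 2.82 against 0.246 and 0.247 for VNS-TAC 1 and 3. Unlike Myh7, Myh7b was lowest in VNS-TAC 3. Its depth was modest, at about 1200 to 3600 fragments per library.

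Myl2, the regulatory light chain gene, was at 16960, 13243 and 9604 FPKM in libraries VNS-TAC 1, 2 and 3, against 12928, 12138 and 11536 FPKM in Ctrl-TAC 1, 2 and 3. The VNS-TAC values spanned the whole Ctrl-TAC range on both sides, and the log2 fold change of 0.08 ± 0.25 (SE; limma adjusted p = 0.883) became -0.11 without VNS-TAC 1 and 0.30 without VNS-TAC 3. Myl3, the essential light chain gene, was at 11750, 9611 and 7501 FPKM in VNS-TAC libraries, compared with 8315, 7954 and 7421 FPKM in Ctrl-TAC. Its VNS-TAC 1 and 2 values were above all Ctrl-TAC values and VNS-TAC 3 was within them, with a log2 fold change of 0.26 ± 0.22 (SE), a 95% interval of -0.24 to 0.77 and a limma adjusted p of 0.564. That value was 0.11 without VNS-TAC 1, 0.43 without VNS-TAC 3 and 0.07 after quantile normalization.

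Mybpc3, whose protein decorates the thick filament, was the steadiest of the 6 genes in VNS-TAC, where its SD on the log2(FPKM + 1) scale was 0.17 and Myl3 came next at 0.32. It was at 1458, 1536 and 1227 FPKM in libraries VNS-TAC 1, 2 and 3, against 1461, 1318 and 1674 FPKM in Ctrl-TAC 1, 2 and 3. The log2 fold change was -0.08 ± 0.16 (SE), with a 95% interval of -0.46 to 0.31 and a limma adjusted p of 0.832, and its sign turned to 0.02 with size factors.

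**Figure D3:**
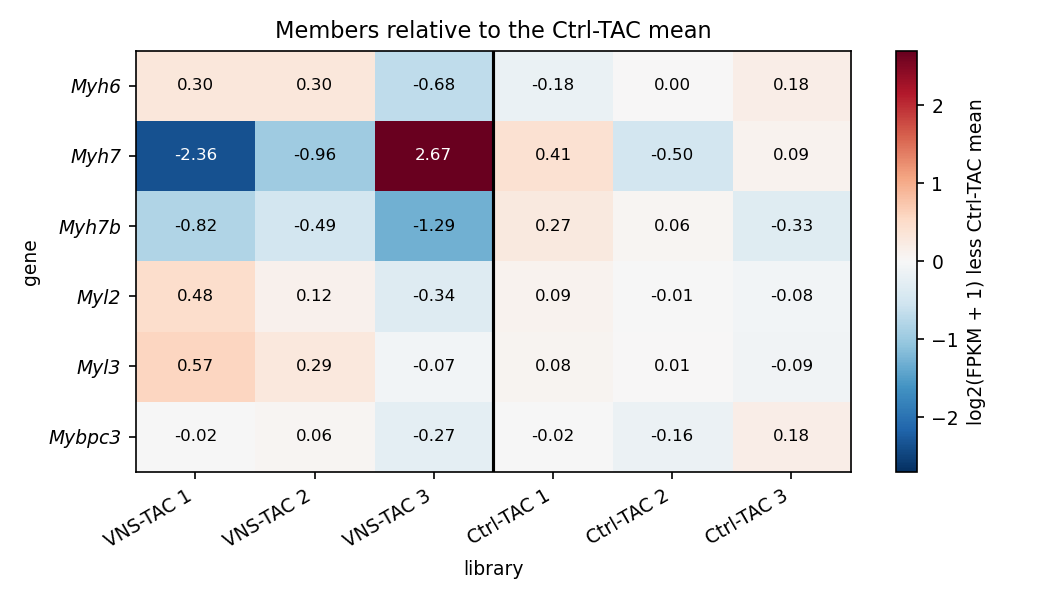
Heat map of log2(FPKM + 1) of each gene in each library, less the mean of the gene over the Ctrl-TAC libraries, with the value in each cell. Myh7 runs from -2.36 in VNS-TAC 1 to 2.67 in VNS-TAC 3, while Mybpc3 lies between -0.27 and 0.18 in all libraries.

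The order of levels was Myl2, Myl3, Myh6, Mybpc3, Myh7 and Myh7b in all libraries but VNS-TAC 3, where Myh7 came before Myh6. Within every library Myl3 was at 0.643 to 0.781 of Myl2, so these neighbours kept their order although their ranges over libraries met. Together the 6 genes covered a wide range of abundance, Myl2 taking 1.81% to 2.90% of the summed FPKM of a VNS-TAC library and 2.23% to 2.42% in Ctrl-TAC, and Myh7b taking 0.00226% to 0.00398% in VNS-TAC, against 0.0047% to 0.00697% in Ctrl-TAC.

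**Figure D4:**
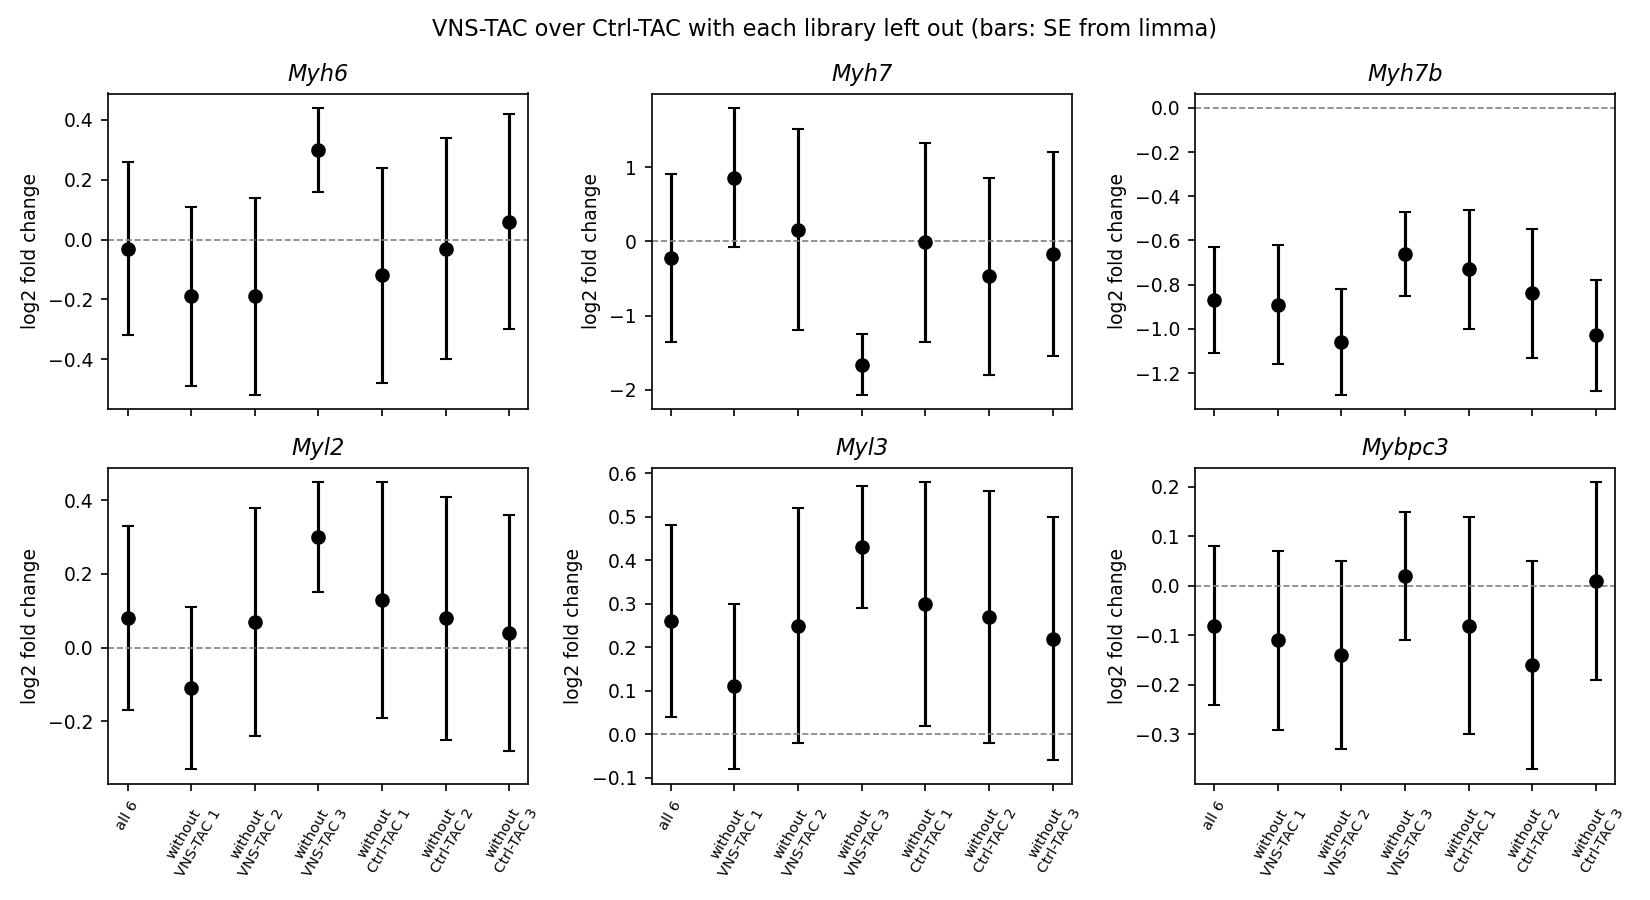
Log2 fold change of VNS-TAC over Ctrl-TAC from limma for each gene (vertical axis, on log2(FPKM + 1); bars are the SE) with all 6 libraries and with each library left out in turn (horizontal axis). Omitting VNS-TAC 3 puts Myh7 at -1.66 and omitting VNS-TAC 1 puts it at 0.86, whereas Myh7b stays between -1.06 and -0.66.

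Other muscle tissue that expresses Myh7, Myl2 and Myl3 was looked for through its own markers. The fast skeletal heavy chain genes Myh1, Myh2 and Myh4 were at most 0.06 FPKM in any library, and Mybpc1, a slow skeletal myosin binding protein gene, was at most 0.03 FPKM in VNS-TAC libraries, compared with 0.12 in Ctrl-TAC. The slow skeletal troponin gene Tnnt1 was at 18.4, 12.02 and 9.84 FPKM in libraries VNS-TAC 1, 2 and 3, and at 12.8, 16.1 and 10.7 in Ctrl-TAC. The slow troponin gene Tnni1 had the opposite order, at 0.68, 0.92 and 2.29 FPKM in libraries VNS-TAC 1, 2 and 3, where it followed Myh7, against 1.40, 0.77 and 0.77 in Ctrl-TAC. Mylpf and Tnni2, fast skeletal markers, were also at their highest in VNS-TAC 3, at 1.74 and 2.86 FPKM. The summed FPKM of 6 slow skeletal markers, which include Myh7b, was 59.0 to 70.6 in VNS-TAC libraries, against 70.6 to 93.6 in Ctrl-TAC. For 10 fast skeletal markers it was 19.4 to 23.6 in VNS-TAC, against 27.8 to 43.1 in Ctrl-TAC, most of it Mybpc2. The part of these markers in the lower Myh7b of VNS-TAC was not tested.

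The sum of 10 atrial markers was 4157, 5865 and 9488 FPKM in libraries VNS-TAC 1, 2 and 3, against 6668, 3332 and 10490 in Ctrl-TAC 1, 2 and 3. It was highest in Ctrl-TAC 3, whose Myh7 was between those of the other Ctrl-TAC libraries. Within VNS-TAC, 8 of the 10 ascended over libraries 1, 2 and 3 as Myh7 did, an order that 36.1% of all tested genes had. Myl4 (530, 554 and 486 FPKM) and Sln (135, 186 and 185 FPKM) did not. Pam ascended only from 327.56 to 328.13 FPKM between VNS-TAC 2 and 3. The part of atrial RNA in the result was not tested. Nppa, the atrial natriuretic peptide gene, made up most of the atrial sum and most of its rise, from 2645 FPKM in VNS-TAC 1 to 7691 in VNS-TAC 3. It is also among the stress genes described below. The 5 blood markers, haemoglobin genes with near-identical copies and Alas2, summed to 1503, 310.2 and 25.1 FPKM in VNS-TAC libraries, compared with 577.7, 272.1 and 182.6 in Ctrl-TAC. This order was the reverse of the order of Myh7 in VNS-TAC but not in Ctrl-TAC, and its part in the result was not tested. The sums of 4 endothelial, 4 macrophage, 5 smooth muscle and 5 conduction system markers were lowest in VNS-TAC 3, at 172.4, 67.4, 75.9 and 10.1 FPKM. The sum of 5 fibroblast markers ran the other way, at 228.6, 301 and 425.1 FPKM in libraries VNS-TAC 1, 2 and 3, where it followed Myh7, against 391.3, 388.9 and 359.4 in Ctrl-TAC. Most of it was Dcn (387.7 FPKM in VNS-TAC 3, its highest library), while Col1a1, Tcf21 and Lum were lowest there. The endothelial markers were split as well, with Pecam1 highest in VNS-TAC 3 (74.96 FPKM) and Cdh5, Kdr and Tie1 lowest there. The part of these cell types in the result was not tested. The sum of 7 markers shared by all cardiomyocytes was 38470, 32190 and 30050 FPKM in VNS-TAC libraries, compared with 28740 to 29480 in Ctrl-TAC. Within it, Actc1 (cardiac actin) was at 2667 FPKM in VNS-TAC 3 and at 8958 or more in every other library, and Tnnt2 (cardiac troponin T) was at 15154 FPKM there and at 9579 or less elsewhere.

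Of 12 other sarcomeric myosin genes, 11 were in the table and only 4 were tested, 2 higher and 2 lower on average, with a median log2 fold change of 0.10. None had an unadjusted p under 0.05. The heavy chain genes Myh1, Myh2, Myh3, Myh4, Myh8, Myh13 and Myh15 all stayed at or below 0.17 FPKM, so that, of the sarcomeric heavy chain genes looked at, Myh6, Myh7 and Myh7b exceeded that level. Myl1, a fast light chain gene, was at 31.2, 41.9 and 18.3 FPKM in VNS-TAC libraries, compared with 59.1, 31.1 and 85.5 in Ctrl-TAC (log2 fold change -0.88 ± 0.41, SE; limma adjusted p = 0.352). Myl7 and Mylpf had log2 fold changes of 0.40 and 0.24 (limma adjusted p = 0.72 and 0.648).

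Of 11 genes of non-muscle and smooth muscle myosin, 9 were lower and 2 higher on average, with a median log2 fold change of -0.32. Unadjusted p was under 0.05 for 2, both lower, and 3 did not overlap, all lower. The shares of all tested genes that were lower in these 2 ways were 11.3% and 17.4%. Myh10, a non-muscle heavy chain gene, was at 5.86, 6.84 and 4.98 FPKM in VNS-TAC libraries, compared with 8.68, 9.09 and 8.13 in Ctrl-TAC (log2 fold change -0.49 ± 0.14, SE; limma adjusted p = 0.244). Myh9, the main non-muscle heavy chain gene, had a log2 fold change of -0.48 (adjusted p = 0.284), and the regulatory light chain gene Myl12a one of -0.37 (adjusted p = 0.36).

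Among partners of the thick filament and regulators of light chain phosphorylation, 13 of 16 genes were tested, 5 higher and 8 lower on average (median log2 fold change -0.09). An unadjusted p under 0.05 was found for 1 higher and 2 lower genes, and for 15.0% of all tested genes. Mybpc2, the fast skeletal relative of Mybpc3, was at 20.2, 17.6 and 13.2 FPKM in VNS-TAC libraries, compared with 38.6, 28.6 and 22.8 in Ctrl-TAC (log2 fold change -0.77 ± 0.23, SE; limma adjusted p = 0.245). Ttn, the giant spring along the filament, was at 28.04, 49.4 and 31.4 FPKM in VNS-TAC, against 56.4, 61.5 and 54.2 in Ctrl-TAC (-0.69 ± 0.21; adjusted p = 0.251). Ppp1r12c, a myosin phosphatase subunit, was at 41.3, 43.4 and 60.3 FPKM in VNS-TAC libraries, compared with 32.1, 34.5 and 32.4 in Ctrl-TAC (0.52 ± 0.16; adjusted p = 0.251). These 3 genes did not overlap between groups, as was the case for 25.4% of all tested genes, and none passed the adjusted threshold.

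Myosin is folded by chaperones and removed by muscle ubiquitin ligases. Of 11 such genes, 4 were higher and 7 lower on average (median log2 fold change -0.17), with an unadjusted p under 0.05 for 2 higher and 3 lower. Over all tested genes, 15.0% had such a p in either direction. Hsp90aa1, an inducible chaperone that works with Unc45b on myosin heads, was at 16.6, 31.0 and 27.7 FPKM in VNS-TAC libraries, compared with 59.6, 99.0 and 49.7 in Ctrl-TAC (log2 fold change -1.42 ± 0.31, SE; limma adjusted p = 0.19). Its constitutive relative Hsp90ab1 had a log2 fold change of -0.50 (adjusted p = 0.221). Trim54, a ligase of the MuRF family, was at 227, 292 and 355 FPKM in VNS-TAC libraries, compared with 215, 183 and 210 in Ctrl-TAC (0.50 ± 0.18; adjusted p = 0.276).

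Of 28 factors and cofactors known to act on Myh6 or Myh7, 25 were tested, 8 higher and 17 lower on average (median log2 fold change -0.06), with an unadjusted p under 0.05 for 1 in each direction. Over all tested genes, 15.0% had such a p in either direction. Nkx2-5, a cardiac homeodomain factor, was at 87.0, 66.7 and 72.0 FPKM in VNS-TAC libraries, compared with 50.4, 53.3 and 54.5 in Ctrl-TAC (log2 fold change 0.50 ± 0.13, SE; limma adjusted p = 0.232). Med13, a Mediator subunit known in mice as a target of miR-208a, was at 1.90, 3.41 and 3.37 FPKM in VNS-TAC libraries, compared with 4.65, 5.05 and 4.04 in Ctrl-TAC (-0.54 ± 0.19; adjusted p = 0.275). Mef2c, a factor of the muscle programme, had a log2 fold change of -0.41 (adjusted p = 0.349). Within VNS-TAC, 10 of the 25 tested factors ascended over libraries 1, 2 and 3 as Myh7 did (Thrb, Mef2a, Gata6, Tbx5, Tead1, Tead3, Sox6, Sp3, Purb and Pura), and 36.1% of all tested genes had this order. Pura was at 2.03, 4.75 and 6.81 FPKM there and at 5.37, 4.22 and 3.30 in Ctrl-TAC, lowest and highest of the 6 libraries where Myh7 was. Thrb, a thyroid hormone receptor gene, had its extremes in the same libraries. Its level rose from 1.04 FPKM in VNS-TAC 1 to 2.99 in VNS-TAC 3, while the Ctrl-TAC libraries lay between 2.07 and 2.76. How common such extremes are among all tested genes was not counted, and both libraries are the outlying ones. The receptor gene Thra also peaked in VNS-TAC 3 (66.42 FPKM) but did not follow Myh7. Its level fell from 57.63 FPKM in VNS-TAC 1 to 51.28 in VNS-TAC 2, and its minimum was Ctrl-TAC 3 (40.37 FPKM). Thyroid hormone receptors activate Myh6 and repress Myh7, and 10 other genes responsive to this hormone were tested. Of these, 2 were higher and 8 lower on average (median log2 fold change -0.13), none with an unadjusted p under 0.05 and none without overlap. The 3 with the smallest p were the glucose transporter gene Slc2a4, Pln, which encodes the inhibitor of the calcium pump SERCA, and the pacemaker channel gene Hcn2, with log2 fold changes of 0.20, -0.30 and -0.27 in this order (limma adjusted p = 0.46, 0.5 and 0.575). In VNS-TAC 3, 7 of these 10 genes were at their lowest of the 6 libraries and 0 at their highest. The 7 were Atp2a2, Hcn2, Kcna5, Adrb1, Ryr2, Ucp3 and Slc16a10. Of all tested genes, 26.4% were lowest and 31.8% highest in that library. The part of thyroid hormone in the result was not tested.

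Myh7 belongs to a set of genes that the stressed or fetal heart expresses, and a list of 15 others was tested. The list also holds Mb, Ckm and Des, which are genes of mature muscle. Its counts are therefore not of fetal or stress genes alone. On average 3 of the 15 were higher and 12 lower (median log2 fold change -0.21). An unadjusted p under 0.05 was found for 5, all lower. Over all tested genes, 61.8% were lower on average and 11.3% were lower with such a p. Gdf15, Xirp2 and Cnn1 had the smallest p, with log2 fold changes of -1.92, -1.84 and -1.41 (limma adjusted p = 0.182, 0.186 and 0.232). The list divided in VNS-TAC 3, where Myh7 was highest. There 5 of its 15 genes were at their highest of the 6 libraries (Nppa, Tnni1, Ankrd1, Ccn2 and Des) and 8 at their lowest (Acta1, Actc1, Tnnt1, Xirp2, Tpm2, Gdf15, Mb and Ckm). Of all tested genes, 31.8% were highest and 26.4% lowest in that library. The skeletal actin gene Acta1 was at 968, 1382 and 84.9 FPKM in VNS-TAC libraries, compared with 3986, 2957 and 1569 in Ctrl-TAC. Nppa was at 2645, 4118 and 7691 FPKM in libraries VNS-TAC 1, 2 and 3, against 4966, 2567 and 6992 in Ctrl-TAC.

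**Figure D5:**
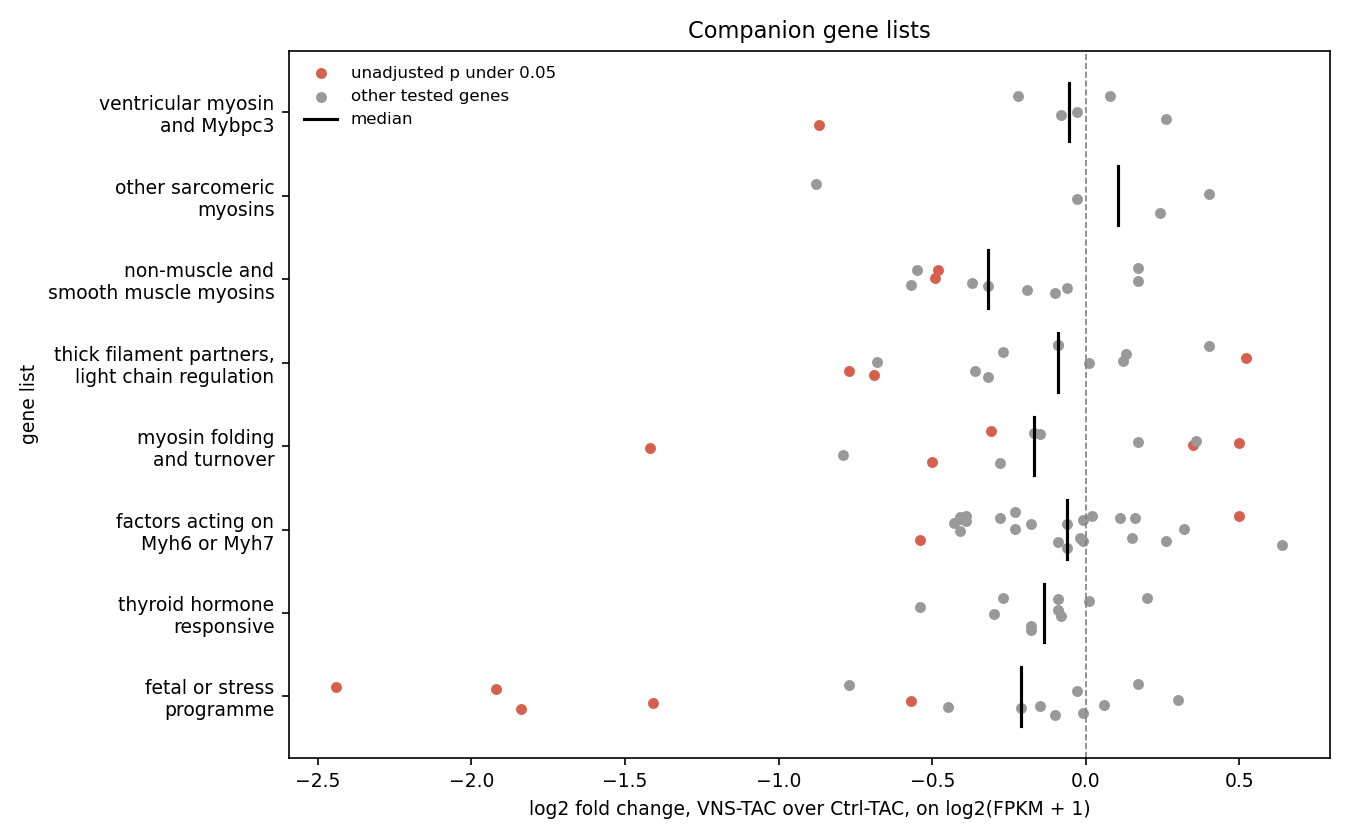
Log2 fold change of VNS-TAC over Ctrl-TAC (horizontal axis, on log2(FPKM + 1)) of the tested genes of each list (down the page, with the 6 myosin and thick filament genes on top). Red points have an unadjusted p under 0.05, which 15.0% of all tested genes had, and black lines are medians, which lie between -0.32 and 0.10.

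The genes whose profile over the 6 libraries was most like that of Myh7 were found by the root mean square difference of log2(FPKM + 1), each gene being centred on its own mean. They were Hamp at 0.76, Tgtp1 at 0.82, Retreg1 at 0.86, Dusp4 at 0.87 and Ankrd1 at 0.88, against a median of 1.5 over tested genes. Hamp, the hepcidin gene, was at 5.17, 18.6 and 86.3 FPKM in libraries VNS-TAC 1, 2 and 3, against 26.9, 5.94 and 41.6 in Ctrl-TAC. Retreg1, a receptor for autophagy of the endoplasmic reticulum, was at 28.4, 114 and 250.04 FPKM in VNS-TAC libraries, compared with 66.8, 76.8 and 86.1 in Ctrl-TAC. Ankrd1, a stretch-responsive gene of the cardiomyocyte, was at 502, 1098 and 2746 FPKM in VNS-TAC libraries, compared with 2480, 1719 and 1759 in Ctrl-TAC. Tgtp1 has a near-identical copy in the genome, so its level is uncertain.

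For Myh6 the nearest genes were Spata33 at 0.06, Slc16a1 and Fam160a1 at 0.07, Cadm4 at 0.09 and Atpaf2 at 0.10, against a median of 0.42. For Myl2 they were Ndufaf3 and Ndufb2 at 0.03, and Mrps34, Uqcr11 and Ethe1 at 0.04, against a median of 0.35. Myl3 was at 0.10 from Myl2, rank 161, and Mybpc3 at 0.23. Myh7 ranked 11417 among the genes by likeness to Myh6 and the same by likeness to Myl2, at 1.85 and 1.76. The profiles were centred but not scaled, so a gene with a spread as large as that of Myh7 ranks low whatever its direction. These 2 ranks therefore do not describe the direction of Myh7. These are descriptions over 6 libraries that include the outlying libraries VNS-TAC 1 and VNS-TAC 3.

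Because Myh6 and Myh7 moved in opposite ways in the individual VNS-TAC libraries, their RefSeq promoters (GRCm38.p6, minus strand, 250 bases before to 50 after an annotated start) are shown, with motif matches in capitals.
Myh6, chr14:54966558-54966857: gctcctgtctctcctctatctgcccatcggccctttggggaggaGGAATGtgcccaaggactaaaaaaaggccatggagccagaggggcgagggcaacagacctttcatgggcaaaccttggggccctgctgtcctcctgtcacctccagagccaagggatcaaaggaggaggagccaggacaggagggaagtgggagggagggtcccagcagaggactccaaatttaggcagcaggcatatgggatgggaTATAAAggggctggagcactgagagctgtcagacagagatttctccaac
Myh7, chr14:54994577-54994876: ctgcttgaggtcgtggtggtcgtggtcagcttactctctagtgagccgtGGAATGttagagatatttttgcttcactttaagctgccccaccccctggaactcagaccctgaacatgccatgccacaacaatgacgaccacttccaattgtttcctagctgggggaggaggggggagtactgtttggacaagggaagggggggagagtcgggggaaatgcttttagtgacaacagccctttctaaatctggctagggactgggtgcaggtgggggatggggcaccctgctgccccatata
Both strands were searched for CATTCC (the MCAT element bound by TEAD factors), the TATA box as TATAAA, the thyroid hormone receptor half-site as AGGTCA, the zinc finger factor site AGATAA, and the motifs named MEF2 and CArG. Each of these windows holds 1 MCAT match, at base -206 of Myh6 and -201 of Myh7 on the opposite strand, as do 14.7% of 32841 promoters of this length. Myh6 also holds TATAAA at base 2 after the annotated start, which 13.6% of promoters hold. No other match to these letters lies in either window, and the matches do not overlap. Only sequences that fit the letters in full were searched for, so a binding site that departs from them would be missed. RefSeq also has a second Myh7 window, chr14:54994500-54994799, and it holds none of these motifs.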

How the data were processed

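Gene levels were measured in heart tissue of 3 VNS-TAC and 3 Ctrl-TAC libraries from oligo-dT selected mRNA, as the labels' protocols state. The authors deposited FPKM values to 2 decimals, per the file headers. Per the submitters' processing notes, HISAT, featureCounts 1.5.0-p3 and DESeq 1.8.3 were used with GRCm38. Annotation, strand setting and the roles of the tools were not given in those notes. Groups came from sample titles, because a treatment tag reads VNS for the controls as well.

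Symbols came from RefSeq (GRCm38.p6) for 17890 IDs and from GENCODE M21 for 15 more. The 11422 genes averaging 1 FPKM or more entered limma 3.58.1 (R 4.3.3) on log2(FPKM + 1), which understates the change of low genes. The fit had an intensity trend and 4 residual degrees of freedom, and p-values were adjusted by Benjamini-Hochberg over all of these genes. The script was tested on simulated data. Ratios were compared with 2-sided exact permutation tests (scipy 1.17.1). Depths were estimated from the steps of low values of genes with a single annotated transcript, and were used in no test. Coding sequences of GENCODE M21 transcripts were aligned with biopython 1.88.

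The 6 genes and the lists of other genes were chosen with earlier results of these data known. Of each list, the text names the 3 genes with the smallest unadjusted p, since none passed the adjusted threshold, and for likeness the 5 nearest genes. Genes named beyond that rule were chosen after their values were seen. They include Acta1, Actc1, Myl4, Nppa, Nppb, Pam, Pura, Sln, Thra, Thrb, Tnni1, Tnnt1 and Tnnt2.

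Alternatives were pseudocounts of 0.1 and 0.5, other filters, 3 rescalings, limma without trend, limma in robust form, limma with array weights estimated gene by gene, and omission of single libraries.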

Additional observations from a re-analysis of the deposited data

How the results depend on the processing

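No member passed the adjusted threshold under any of 16 alternatives, except Myh7b with array weights (log2 fold change -0.67). The count of genes past it was 0, and 1 when genes had to average 5 FPKM, 2 with size factors, 2 after quantile normalization, 1016 with array weights, and 0 to 3 with a library left out (3 without VNS-TAC 3 and 3 without Ctrl-TAC 1). Size factors gave 0.07 for Myh6 and 0.02 for Mybpc3, and array weights 0.28 and 0.05, all of opposite sign to the fit of all libraries. Array weights gave -0.85 for Myh7, and the ratio compared by group medians gave -1.18. With a library left out, log2 fold changes ranged from -0.19 to 0.30 for Myh6, -1.66 to 0.86 for Myh7, -0.11 to 0.30 for Myl2 and -0.16 to 0.02 for Mybpc3. Under the same omissions the difference of the log2 Myh7 to Myh6 ratio ranged from -1.96 to 1.05. Relative to Myl2, Myl3 and Mybpc3, the difference of Myh7 ranged from -1.91 to 0.89 and that of Myh6 from -0.25 to 0.05. The mean share of Myh7 in both heavy chains was 9.33 percentage points higher in VNS-TAC, although the mean log2 ratio was lower, since VNS-TAC 3 alone (62.8%) lifts the linear mean. Myl3 stayed higher and Myh7b lower in all 16. Where 2 libraries are set against 3, the spread is pooled over both groups. No paired analysis was possible because libraries numbered 1 to 3 in the VNS-TAC columns carry other numbers in the labels, so a replicate block was not run.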

Other observations

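These ratios between members were looked at after their values had been seen, so they are given with no test. The Myl3 to Myl2 ratio was 0.693, 0.726 and 0.781 in VNS-TAC 1, 2 and 3, against 0.643, 0.655 and 0.643 in Ctrl-TAC 1, 2 and 3, so the essential light chain gene was higher relative to the regulatory one in every VNS-TAC library. Myl3 and Myl2 encode proteins that bind the same heavy chain. The ratio of Mybpc3 to the summed Myh6 and Myh7 was 0.225, 0.227 and 0.142 in VNS-TAC libraries, against 0.258, 0.229 and 0.25 in Ctrl-TAC, where the upper VNS-TAC value and the lowest Ctrl-TAC value nearly met. The summed heavy chains stood at 0.382, 0.510 and 0.900 of Myl2 in VNS-TAC libraries, against 0.438, 0.474 and 0.582 in Ctrl-TAC. Myh7b over Myh6 was 0.00269, 0.00341 and 0.00373 in VNS-TAC libraries, against 0.00820, 0.00625 and 0.00418 in Ctrl-TAC, with no overlap between the groups.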
